A study of Mus musculus with 40 samples.

Results

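Chemokines and their receptors were described in the heat-producing brown adipose tissue of mice. The 59 genes were the rows of a table of 52636 genes whose mouse symbol names a CC, CXC, CX3C or C chemokine or one of their conventional or atypical receptors. The symbol pattern matched 62 rows, and 3 annotated pseudogenes (Cxcl11, Ccl19-ps1 and Ccl19-ps3) were left out. The set held 37 ligands and 22 receptors.

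Tissue came from male C57BL/6 mice given 1 intraperitoneal dose of antibody, with 8 groups of 5 mice and 1 RNA-seq library a mouse. The age was 10 to 12 weeks in the series' design text and 10 to 14 weeks in the treatment protocol. The dose in control mice was 40 mg/kg of anti-ragweed, an isotype control directed at a plant allergen. Jag antibody mice were given anti-Jag1 and anti-Jag2 at 20 mg/kg each, which block these Notch ligands. Tissue was collected at 15 h, 5 d or 7 d, and further control and Jag antibody mice were given 1 ug of T4 and 0.05 ug of T3, the thyroid hormones, per g of body weight daily from day 2 and sampled at 7 d. Mice are named by the number in their label, 1 to 5 for control and 6 to 10 for Jag antibody mice. The labels number the mice and give no further source, so p-values measure the spread between these samples.

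Chemokines are small secreted proteins that guide migrating cells along gradients, and they signal through receptors coupled to inhibitory G proteins. CC and CXC ligands are named for the spacing of their first cysteines. CXC ligands with a glutamate, leucine and arginine before that motif (ELR ligands) attract neutrophils, and several CC ligands attract monocytes. Atypical receptors bind chemokines without signalling through G proteins and remove them or shape their gradients. In fat, macrophages, endothelium and stromal cells are known sources of these transcripts.

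Of the 59 genes, 45 had enough counts to be tested among 17079 genes. The 14 not tested were Ccl1, Ccl19, Ccl20, Ccl21a, Ccl21b, Ccl26, Ccl27b, Ccr4, Ccr6, Ccr8, Cxcl3, Cxcl15, Cxcl17 and Cxcr1. Ccl19, Ccl20, Ccl21a, Ccl21b and Ccl27b were at 0 in all 40 libraries, which allows up to 3 counts over the libraries together. Ccl19, Ccl21 and Ccl27 have near-identical copies in the mouse genome, so their counts are uncertain. Library totals were 12217623 to 36511893 counts. Brown adipocyte markers (Ucp1 and 7 others) summed to 8840 to 80600 CPM (counts scaled by the effective size of each library) in every mouse, and skeletal muscle markers to 0.878 to 176000. Exons of Ackr4, Ccl25, Ccl27a, Ccr9, Cx3cr1, Cxcl10, Cxcl16, Cxcr5 and Xcl1 overlap those of a gene on the other strand and exons of Ackr1 those of Cadm3 on the same strand, and whether the counting used strand is not given, so their counts are uncertain. In bulk tissue, fewer cells of a type and less RNA per cell cannot be told apart.

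Members are first given per length, as TPM (counts per kb of exon, scaled to the same sum in each library), the scale on which genes were compared with each other. The gene with the highest median TPM over the 40 mice was Ackr3, an atypical receptor for Cxcl12, at 71.8 (lowest mouse 27.9, highest 170). It was followed by Ccl6, a macrophage-expressed CC ligand, at 58.3 (4.52 to 2940) and Ccl11, the eosinophil attractant eotaxin, at 50.5 (28.4 to 96.5). Median TPM was 34.9 for Ccl8, 27.7 for Cxcl12, 20.9 for Ccl9, 19.7 for Cxcl9 and 19.0 for Cxcl14. The ranges of these 8 genes over mice overlapped for every pair of neighbours in this order.

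Members differed widely in how steady they were. On the log2 CPM scale, the SD over the 40 mice was 0.400 for Cxcl12, a stromal ligand that retains leukocytes in tissues, and 0.441 for Ccl11. It was 2.47 for Ccl2 and 2.55 for Ccl7, the monocyte attractants that bind Ccr2.

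**Figure D1:**
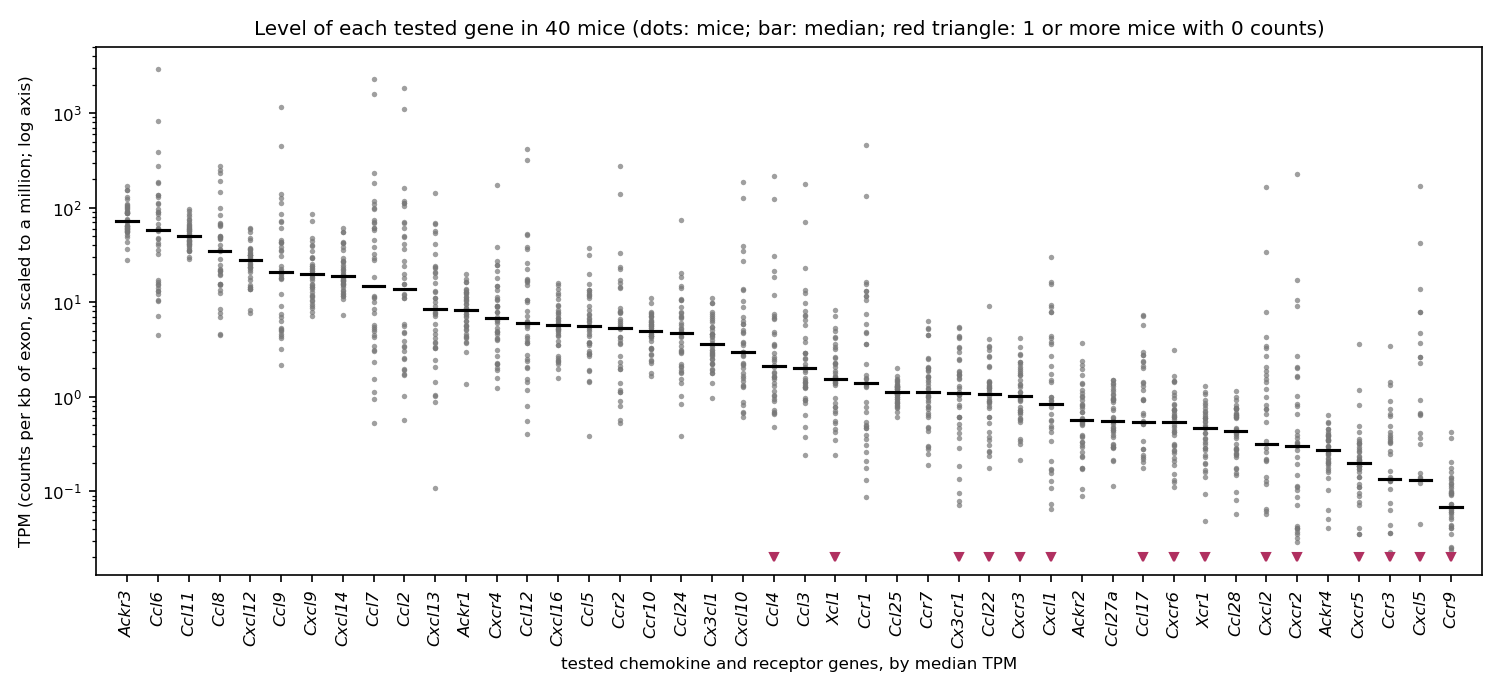
Level of tested genes in TPM (y axis, log scale), ordered by median, with a dot for each of 40 mice, a bar at the median and a red triangle where 1 or more mice had 0 counts. Ackr3 had the highest median, 71.8, and Ccl6, Ccl9, Ccl7 and Ccl2 each had a mouse above 1000.

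Promoters are shown for some of the members that were high together in the same mice at 15 h (values follow). All those shown hold a match to the NF-kB consensus, so they do not stand for all members high in these mice. The promoter of Ccr1, which also holds a match, is not shown. RefSeq's promoter table for GRCm38.p6 held 45 of the 59 genes. Its windows were read here as the 200 bases upstream of the start, 5′ to 3′ on the gene's strand, for Cxcl1 (chr5:90891045-90891244, plus strand), Cxcl2 (chr5:90903699-90903898, plus), Cxcl3 (chr5:90785901-90786100, plus), Cxcl10 (chr5:92348890-92349089, minus) and Ccl9 (chr11:83578637-83578836, minus). Capitals mark matches to the NF-kB consensus, searched on both strands with overlapping matches counted.
Cxcl1: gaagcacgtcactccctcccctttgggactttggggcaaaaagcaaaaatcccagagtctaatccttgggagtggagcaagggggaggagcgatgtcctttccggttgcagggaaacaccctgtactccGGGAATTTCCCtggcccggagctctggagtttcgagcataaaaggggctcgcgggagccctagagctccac
Cxcl2: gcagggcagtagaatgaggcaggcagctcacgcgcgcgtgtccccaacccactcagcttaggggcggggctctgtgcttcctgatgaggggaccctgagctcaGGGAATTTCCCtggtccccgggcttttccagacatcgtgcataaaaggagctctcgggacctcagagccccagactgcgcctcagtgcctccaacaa
Cxcl3: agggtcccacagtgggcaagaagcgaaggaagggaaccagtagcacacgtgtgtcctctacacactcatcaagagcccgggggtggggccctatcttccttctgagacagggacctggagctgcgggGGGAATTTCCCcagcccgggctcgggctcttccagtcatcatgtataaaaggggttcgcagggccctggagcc
Cxcl10: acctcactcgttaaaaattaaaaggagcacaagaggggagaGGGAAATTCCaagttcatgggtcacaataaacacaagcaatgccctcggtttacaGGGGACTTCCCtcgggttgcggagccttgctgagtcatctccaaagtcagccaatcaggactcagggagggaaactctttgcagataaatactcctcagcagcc
Ccl9: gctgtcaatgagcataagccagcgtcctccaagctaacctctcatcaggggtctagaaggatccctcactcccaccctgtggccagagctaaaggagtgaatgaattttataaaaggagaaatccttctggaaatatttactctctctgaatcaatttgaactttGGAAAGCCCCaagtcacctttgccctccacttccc

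The 3 neighbouring ELR ligands each carried the same run of capitals, GGGAATTTCCC, which holds 2 overlapping matches. Cxcl10 had 3 matches in 2 separate runs and Ccl9 had 1. The NF-kB consensus was in 11 of the 45 matched members (24.4%) against 6.07% of 32851 promoters of the same length. A member counted for any motif if 1 or more of its promoters matched, while the share over all was per promoter. Among tested members with a promoter in the table, genes high in control mice 2 and 3 at 15 h held it in 5 of 12 promoters. These were Ccl9, Ccr1, Cxcl1, Cxcl10 and Cxcl2, and Cxcl3 was not among the tested members. The set high in these mice was picked from these same data and held 19 genes. Those without a promoter in the table included Ccl2, Ccl4, Ccl7 and Cxcl5. The other tested members held the consensus in 2 of 21 matched promoters, and the difference was not tested. The interferon-stimulated response element (ISRE), searched by its usual consensus, was in 2.22% of members and 2.27% of all promoters, the PU.1 core GAGGAA in 22.2% and 19.0%, and the RBPJ motif GTGGGAA, that of the factor through which Notch acts, in 2.22% and 4.28%. A match describes letters in the window only.

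Control mice 2 and 3 at 15 h stood apart from the other libraries. In these mice 19 of the 45 tested genes were above all 8 other mice of that time. Set against the median of control mice 1, 4 and 5, 18 members were over 10-fold higher in mouse 2 and 14 in mouse 3. The CPM of all members summed to 6920 in mouse 2 and 3410 in mouse 3, against 425 to 760 in the other control mice at 15 h. Mouse 2 had the highest CPM of all 40 mice for 18 of the 45 genes. Such counts were made over members only. The share of all genes that did the same was not computed, so they are not shown to be particular to chemokines. These values are given before the comparisons because 15 h calls rest on them.

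Ligands high in these 2 mice included the monocyte attractants Ccl2 and Ccl7. Ccl2 was at 14.7, 684, 473, 10.2 and 54.9 CPM in control mice 1 to 5. Ccl7 was at 12.1, 609, 481, 10.4 and 33.5 CPM. Cxcl5, an ELR ligand, was at 0.108, 103, 29.3, 0.114 and 2.10 CPM. In each, mice 2 and 3 were the highest and mouse 5 came next. Cxcl3, another ELR ligand, was not tested and had 3479 counts in control mouse 2, 215 in mouse 3 and at most 20 in any other mouse at 15 h. Cxcr2, the neutrophil receptor for ELR ligands, was at 0.0541, 230, 19.8, 0.456 and 1.02 CPM in control mice 1 to 5. Cxcl10, an interferon-induced ligand of Cxcr3, was at 6.22, 94.0, 158, 6.95 and 12.9 CPM.

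Many leukocyte markers moved with these genes. The 6 neutrophil markers summed to 2460 CPM in control mouse 2 and 215 in mouse 3, against 12.7 to 27.7 in the other control mice at 15 h. The 5 monocyte markers summed to 761 and 461 CPM in these mice against 40 to 80.3, and the 8 macrophage markers to 890 and 602 against 235 to 296. The 7 T cell markers lay between 4.61 and 7.27 CPM in all 5. NK cell markers summed to 12.2 and 19.7 CPM against 2.68 to 6.08, and dendritic cell markers to 83.9 and 86 against 48.7 to 60.4. B cell markers summed to 8.82 and 6.39 CPM against 3.58 to 5.58, and mast cell markers, lower in mice 2 and 3, to 29.6 and 33.1 against 34.6 to 47.5. Lists of other cells also set these 2 mice apart. Lymphatic endothelium summed to 131 and 69.5 CPM against 13.1 to 24.9, brown adipocyte markers to 8840 and 14000 against 17600 to 25000, and pericyte markers to 206 and 343 against 542 to 697. The part of these cells in the chemokine levels was not tested.

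**Figure D2:**
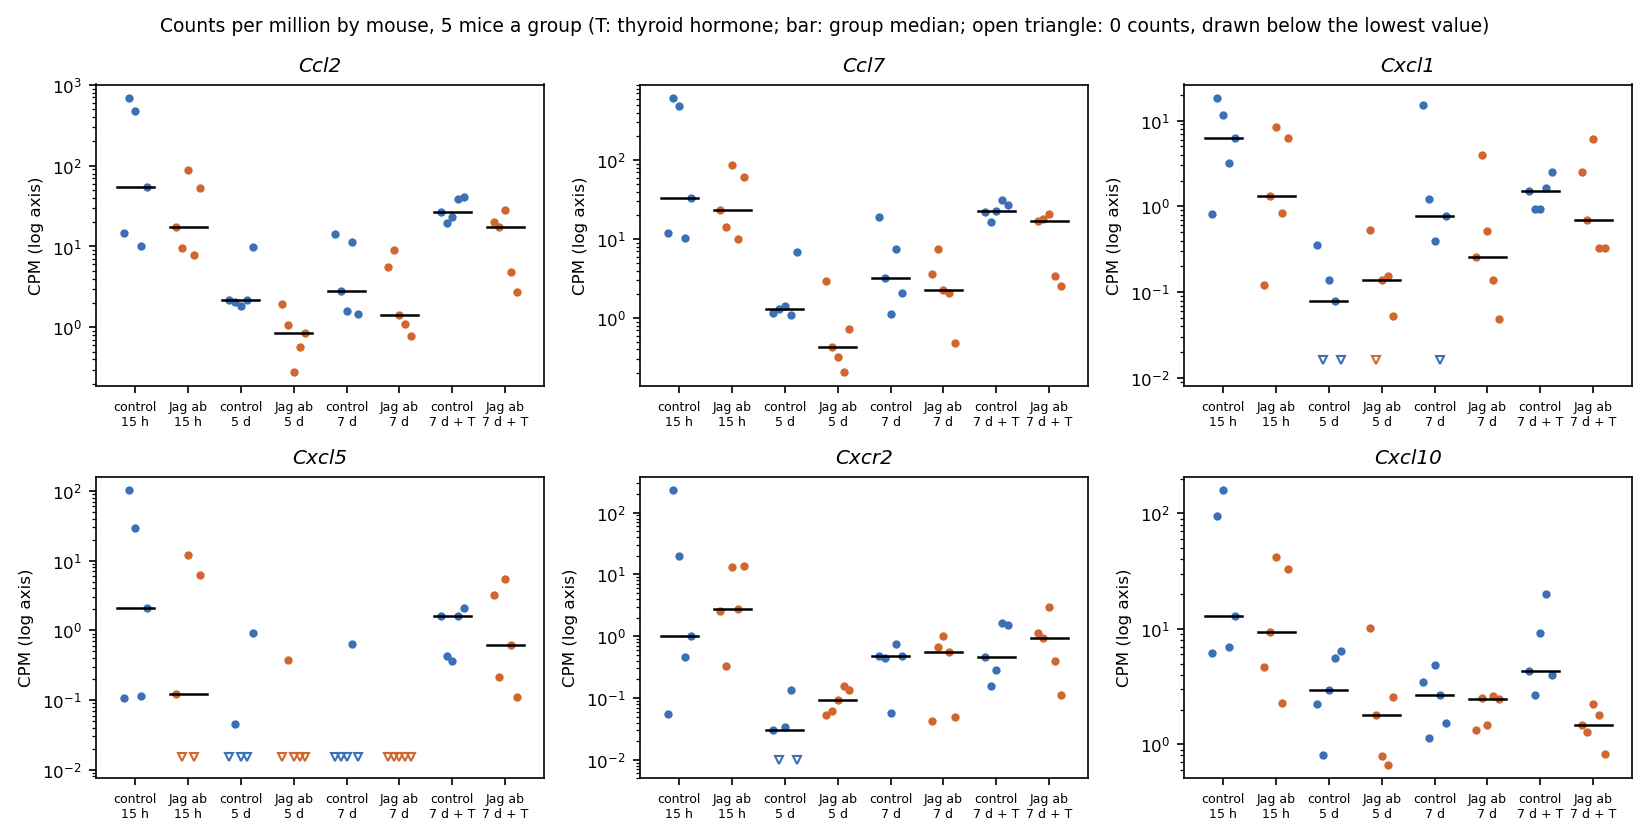
CPM (y axes, log scale) of Ccl2, Ccl7, Cxcl1, Cxcl5, Cxcr2 and Cxcl10 in each mouse of the 8 groups, control mice in blue and Jag antibody mice in orange, with bars at group medians and open triangles for 0 counts. Control mice 2 and 3 at 15 h are the highest in Ccl2 (684 and 473 CPM) and in Cxcl10 (94.0 and 158 CPM).

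Comparisons between groups used edgeR's quasi-likelihood test over the 8 groups, and a gene was called at a Benjamini-Hochberg adjusted p under 0.05 over all 17079 genes. Log2 fold changes of antibody are Jag antibody over control, and those of hormone are with over without. The comparison of antibodies at 15 h asks for the earliest response to ligand blockade. At 15 h, 4 members were called lower and 0 higher, against 1.14% of all genes called, 0.902% lower and 0.234% higher. All 4 were receptors, and Ccr2, Ccr1 and Cxcr4 were among them. The median log2 fold change was -0.53 over the 45 members and -0.04 over all genes.

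Ccr2 (chromosome 9, 124101950 to 124113557, GRCm38), the receptor that draws monocytes from blood, was at 18.4, 620, 351, 25.9 and 96.3 CPM in control mice and 15.6, 16.7, 25.5, 15.7 and 11.5 in Jag antibody mice. The log2 fold change was -3.71 (SE 0.61, adjusted p = 0.00615). The groups overlapped, since control mouse 1 lay within the range of the Jag antibody mice.

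Ccr1, a myeloid receptor for Ccl3 and Ccl5, was at 1.73, 433, 142, 1.94 and 14.0 CPM against 4.29, 1.16, 20.7, 2.02 and 13.7 (log2 fold change -3.82, SE 0.98, adjusted p = 0.0452). Cxcr4, the signalling receptor for Cxcl12, was at 2.33, 103, 25.9, 3.87 and 6.88 CPM against 4.59, 1.71, 7.86, 1.82 and 6.05 (log2 fold change -2.68, SE 0.62, adjusted p = 0.0352). In both Ccr1 and Cxcr4 control mice 1, 4 and 5 lay inside the range of the Jag antibody mice. With control mice 2 and 3 both left out, 0 members were called at 15 h. The log2 fold changes then were -1.45 for Ccr2, 0.52 for Ccr1 and 0.02 for Cxcr4, the last 2 with the opposite sign. Ccr2 was called without each single mouse. Without control mouse 2 alone Ccr1 was at -2.22 (adjusted p = 0.625) and Cxcr4 at -1.11 (0.741). Without control mouse 3 alone they were at -3.74 (adjusted p = 0.127) and -2.71 (0.0929), and leaving out any 1 of Jag antibody mice 6 to 10 also ended both calls (adjusted p of 0.0507 to 0.148). Leaving out control mouse 1, 4 or 5 instead brought the count to 10, 8 and 8.

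The ligands of these receptors were not called at 15 h by edgeR's test. Ccl2, Ccl7, Ccl6, Ccl9, Ccl3 and Ccl4 had log2 fold changes of -2.81, -2.54, -3.03, -3.13, -2.34 and -2.25, with adjusted p of 0.054 (Ccl9) to 0.323 (Ccl4). Ccl5 was at 0.13 (adjusted p = 0.985). DESeq2 called Ccl2, Ccl6 and Ccl9, and edgeR called Ccl6 and Ccl9 with length and GC offsets or with the muscle covariate. Cxcl13, the B cell attractant, was higher without passing the test. It was at 3.84, 2.92, 5.66, 8.15 and 1.88 CPM in control mice and 27.8, 17.6, 22.5, 10.7 and 33.8 in Jag antibody mice, with no overlap (log2 fold change 2.32, SE 0.85, adjusted p = 0.176). Groups did not overlap upward for 1 member, Cxcl13, where 1.56% of all genes did so, and downward for 1, Cx3cr1, where 0.919% did. Cx3cr1, the fractalkine receptor of monocytes and macrophages, was at 7.03, 6.16, 9.25, 4.96 and 10.3 CPM against 3.31, 3.36, 2.23, 3.84 and 1.49. Its log2 fold change was -1.41 (SE 0.52, adjusted p = 0.179 by edgeR), and limma called it. Control mice 2 and 3 did not stand out in it.

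**Figure D3:**
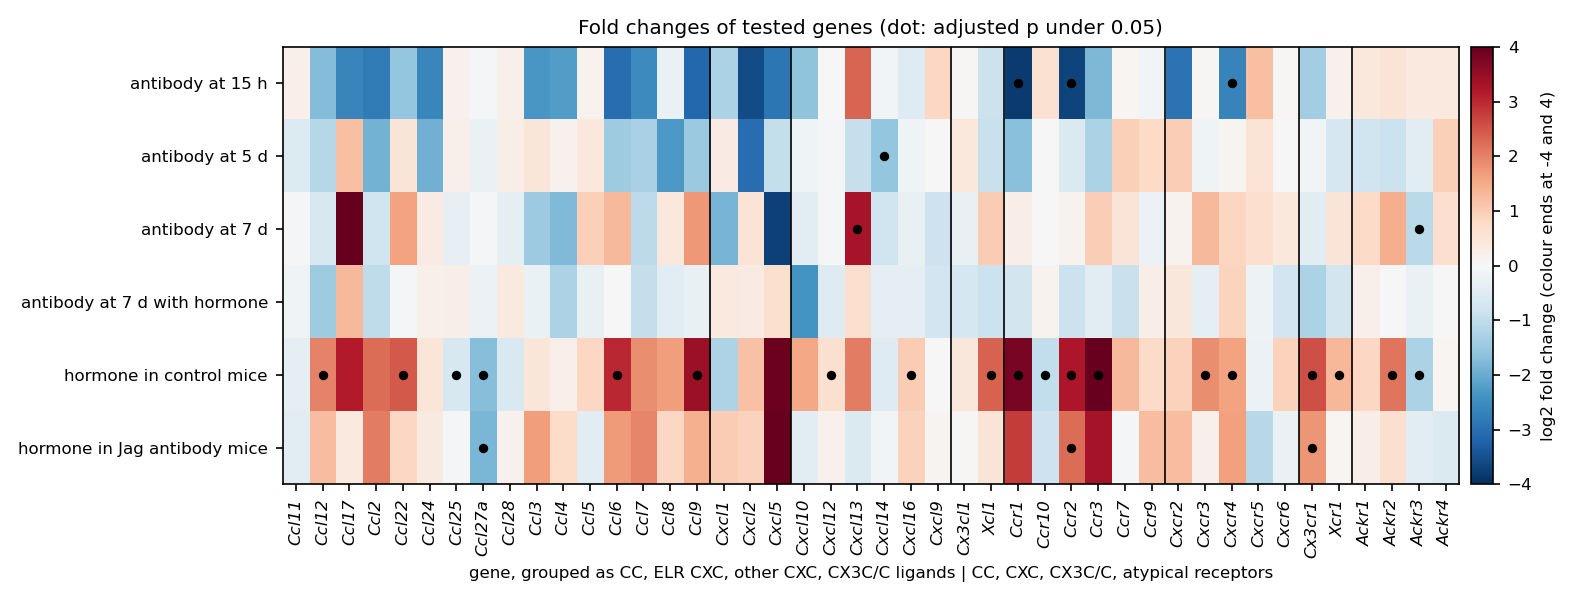
Log2 fold changes (colour, ending at -4 and 4) of tested genes (columns, ligands then receptors) in the 6 comparisons of 2 groups (rows), with a dot where the adjusted p was under 0.05. The row of hormone in control mice holds the most dots, and the row of antibody at 7 d with hormone holds 0.

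At 5 d after the antibody, 1 of 45 members was called, against 8.02% of all genes, 5.93% lower and 2.09% higher. It was Cxcl14 (chromosome 13, 56288643 to 56296551, GRCm38), a ligand that brown fat is known to secrete. Cxcl14 was at 26.7, 18.9, 35.4, 30.0 and 54.3 CPM in control mice and at 5.83, 10.3, 12.0, 14.3 and 14.0 in Jag antibody mice. Every Jag antibody mouse was below every control mouse, a separation seen for 3.16% of all genes in this direction, while 0 members and 1.78% of all genes separated upward. Cxcl14 fell by 1.55 on the log2 scale (SE 0.33, adjusted p = 0.00542) and was called without each single mouse in turn. Leaving out control mouse 1 or 2 or Jag antibody mouse 7 brought the count of members to 2, 3 and 2, with Ccl8, a monocyte attractant, or Ccl24, an eosinophil attractant, or Ackr1 among the added genes.

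Marker lists also differed between these groups at 5 d. Called lower were 2 of 6 fibroblast and progenitor, 2 of 3 pericyte, 2 of 5 mast cell and 1 of 5 tested neutrophil markers. Called higher was 1 of 8 brown adipocyte markers. Fibroblast and progenitor markers summed to 794 to 3240 CPM in control and 691 to 1070 in Jag antibody mice. The part of these cells in Cxcl14 was not tested. Muscle RNA differed as well. The mean log2 CPM of the 8 muscle markers was -0.14 ± 1.95 in Jag antibody and 9.90 ± 3.31 in control mice (SD, n = 5, exact permutation test, two-sided p = 0.00794, adjusted 0.0476 over 12 tests). With that score as a covariate Cxcl14 changed by -1.35 and was not called (adjusted p = 0.108). At 7 d it was at 25.6, 22.5, 35.5, 18.2 and 27.9 CPM in control against 16.3, 11.7, 22.1, 13.9 and 11.1 in Jag antibody mice (log2 fold change -0.79, SE 0.32, adjusted p = 0.168), with overlap. With hormone it was at 12.1, 14.7, 32.3, 11.3 and 19.6 CPM against 18.1, 9.14, 18.1, 11.3 and 13.1 (log2 fold change -0.37, SE 0.32, adjusted p = 0.722).

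At 7 d, 2 members were called, Cxcl13 higher and Ackr3 lower in Jag antibody mice, against 2.50% of all genes, 1.21% higher and 1.29% lower. Cxcl13 (chromosome 5, 95956951 to 95961068, GRCm38) was at 3.04, 0.878, 1.31, 1.52 and 1.96 CPM in control mice and at 66.3, 6.46, 4.27, 3.86 and 5.82 in Jag antibody mice. The log2 fold change was 3.29 (SE 0.90, adjusted p = 0.042), with no overlap, as for 1.72% of all genes in this direction. Jag antibody mouse 6 was about an order of magnitude above its group. Without that mouse the change was 1.52 (adjusted p = 0.302). The call was also lost without control mouse 1, 2, 3, 4 or 5 or Jag antibody mouse 10, at changes of 3.14 to 3.60 and adjusted p of 0.0502 to 0.126. Mouse 6 also had the highest macrophage marker sum of its group, 702 CPM against 161 to 222, while its B cell markers summed to 2.89 CPM, the lowest of the group. Its skeletal muscle markers summed to 51100 CPM against 13.9 to 736, and its brown adipocyte markers to 16900 against 31300 to 40900. With the muscle score as a covariate Cxcl13 was at 2.20 (adjusted p = 0.0978), and with the pan-leukocyte score at 2.67 (0.0961). Cxcr5, the receptor for Cxcl13 on B cells, was at 0.129, 0.835, 0.590, 0.138 and 0.291 CPM in Jag antibody mice 6 to 10 and was not called (log2 fold change 0.68, adjusted p = 0.670).

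Ackr3 (chromosome 1, 90203980 to 90216751, GRCm38) was at 266, 420, 199, 172 and 156 CPM in control mice and 65.6, 152, 174, 111 and 72.2 in Jag antibody mice at 7 d. It fell by 1.08 on the log2 scale (SE 0.31, adjusted p = 0.0491), and the groups overlapped. The call was lost without control mouse 1, 2 or 4 or Jag antibody mouse 6, 9 or 10, at changes of -0.80 to -1.17 and adjusted p of 0.0587 to 0.205. The control group at 7 d was the high one: Ackr3 was at 174, 178, 75.5, 101 and 72.1 CPM in control mice at 5 d. Cxcl12, its ligand, was not called between antibodies at any time (log2 fold changes of -0.02 at 15 h, -0.08 at 5 d and -0.06 at 7 d).

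**Figure D4:**
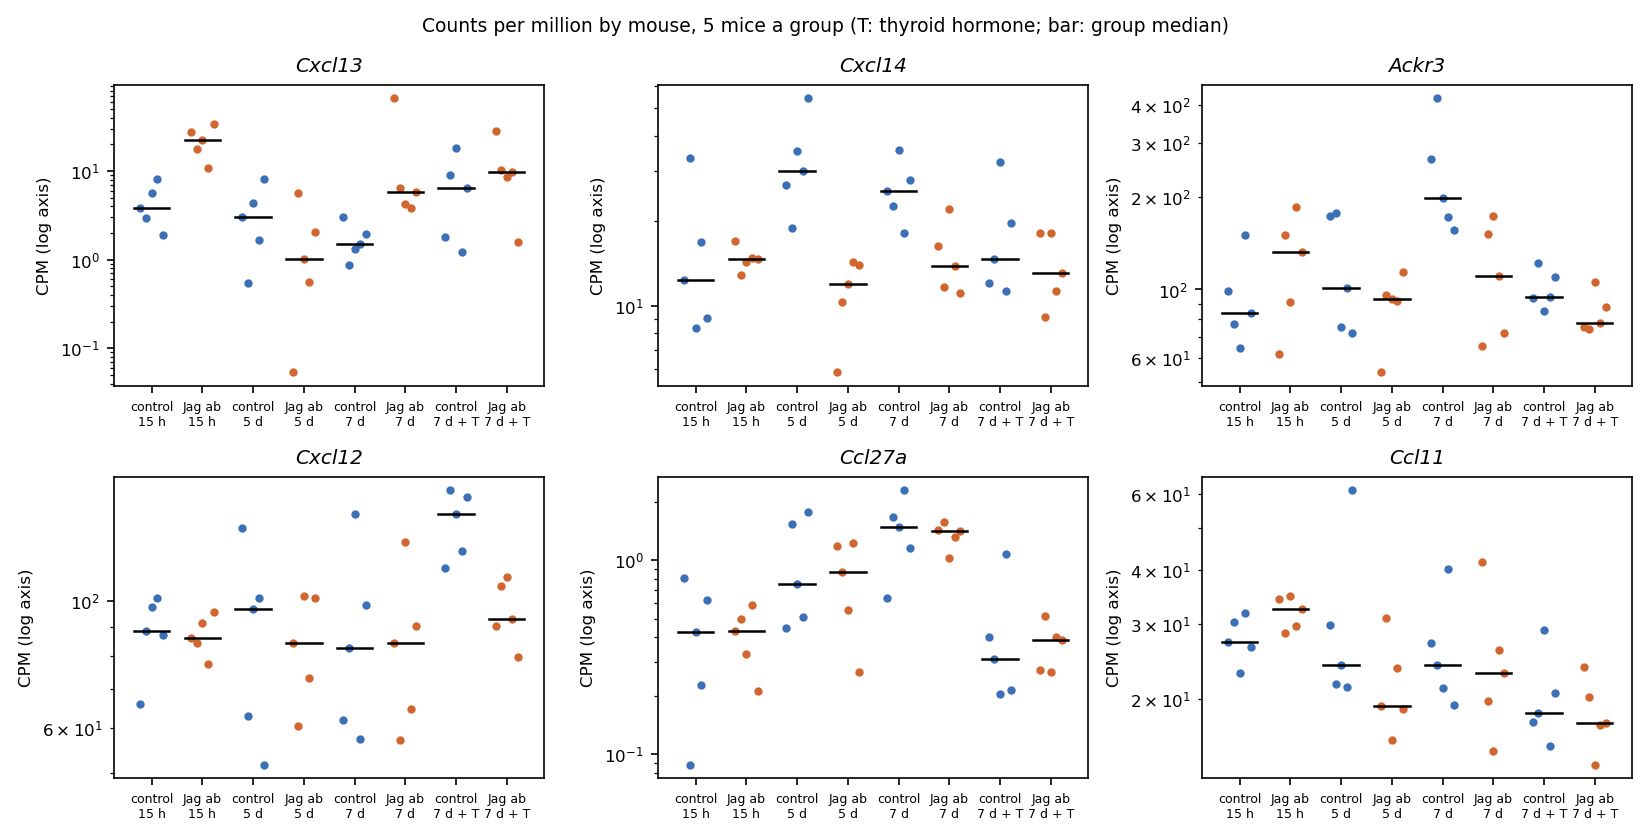
CPM (y axes, log scale) of Cxcl13, Cxcl14, Ackr3, Cxcl12, Ccl27a and Ccl11 in each mouse of the 8 groups, control mice in blue and Jag antibody mice in orange, with bars at group medians. Cxcl13 in Jag antibody mice at 7 d holds 1 mouse at 66.3 CPM, and Ackr3 in control mice at 7 d reaches 420 CPM.

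Between antibodies in mice given hormone, 0 of 45 members were called by edgeR, against 1.14% of all genes, 0.697% higher and 0.439% lower. At an unadjusted p under 0.05 by edgeR there were 5 of 45 members and 2026 of 17079 genes, shares near each other. DESeq2 called 0 members. With only the groups compared edgeR called 3, Cxcl10, Cx3cr1 and Cxcl12, and with the leukocyte covariate it called Cxcr4. The median log2 fold change was -0.29 over members and -0.02 over all genes. Groups did not overlap downward for 3 members, where 2.61% of all genes did so, and upward for 0, where 3.98% did. Cxcl12 was one, at 114, 156, 142, 122 and 152 CPM in control and 90.4, 106, 110, 93.1 and 79.8 in Jag antibody mice (log2 fold change -0.52, SE 0.22, adjusted p = 0.329). Cx3cr1 was another, at 2.87, 4.55, 5.71, 6.35 and 3.46 CPM against 1.85, 2.80, 0.846, 1.54 and 2.42 (log2 fold change -1.27, SE 0.52, adjusted p = 0.284). The third was Cxcl10, at 4.34, 2.70, 9.16, 19.9 and 3.99 CPM against 1.47, 1.29, 2.22, 1.80 and 0.826 (log2 fold change -2.39, adjusted p = 0.192).

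Hormone in control mice gave the most calls. Of 45 members, 20 were called (44.4%), 16 higher and 4 lower, against 43.2% of all genes, 20.3% higher and 22.9% lower. The total share was near that of all genes, while the members called higher were 35.6%. The median log2 fold change was 1.16 over members and 0.04 over all genes. Receptors were higher for 9 of 18 tested and lower for 2, and ligands were higher for 7 of 27 and lower for 2. This comparison shares its control mice at 7 d with the antibody comparison at 7 d. The libraries also differed in how levels followed gene length. The slope of log2 CPM, relative to each gene's mean over mice, on log2 exonic length was -0.542 to -0.059 in control mice at 7 d and 0.041 to 0.247 with hormone, with no overlap. With offsets for length and GC content 24 members were called, 17 of them among the 20, and Ccr10, Xcr1 and Cxcl12 were not.

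Receptors of myeloid cells on chromosome 9 were among those with the largest folds. Ccr2 was at 6.99, 2.63, 1.77, 5.57 and 2.82 CPM without and 19.8, 32.5, 46.9, 49.7 and 35.3 with hormone (log2 fold change 3.23, SE 0.62, adjusted p = 0.000144). These groups did not overlap. Ccr1 (123962124 to 123968692) was at 0.747, 0.966, 0.228, 1.39 and 0.383 CPM without and 6.30, 4.59, 10.8, 12.2 and 14.2 with hormone (3.80, SE 1.07, adjusted p = 0.00494). Ccr3, the eosinophil receptor for Ccl11, had 2 counts in all in control mice at 7 d and 106 with hormone, a ratio of 33.9 (95% interval 9.15 to 283 for counting error only, adjusted p = 0.00342). Ccr1 and Ccr3 did not overlap either, and upward separation was seen for 14 members and for 14.6% of all genes. Downward separation was seen for 1 member and 15.2%.

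Xcr1, the receptor of cross-presenting dendritic cells, also rose (log2 fold change 1.34, adjusted p = 0.0395). Cx3cr1 was at 1.44, 0.615, 0.855, 0 and 0.670 CPM without and 2.87, 4.55, 5.71, 6.35 and 3.46 with hormone (2.59, SE 0.56, adjusted p = 0.000431). All 5 treated mice were above all 5 untreated mice. Among CXC receptors, Cxcr3 of T and NK cells rose by 1.87 (adjusted p = 0.0048) and Cxcr4 by 1.60 (adjusted p = 0.0345). Cxcr2 was not called (0.93, adjusted p = 0.593). The calls of Cxcr4 and Xcr1 were lost in 6 and 7 of 10 fits that left out 1 mouse, without control mouse 2 or 3 or hormone-treated control mouse 3, 4 or 5, and also without control mouse 5 for Cxcr4 and control mouse 4 or hormone-treated control mouse 2 for Xcr1.

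**Figure D5:**
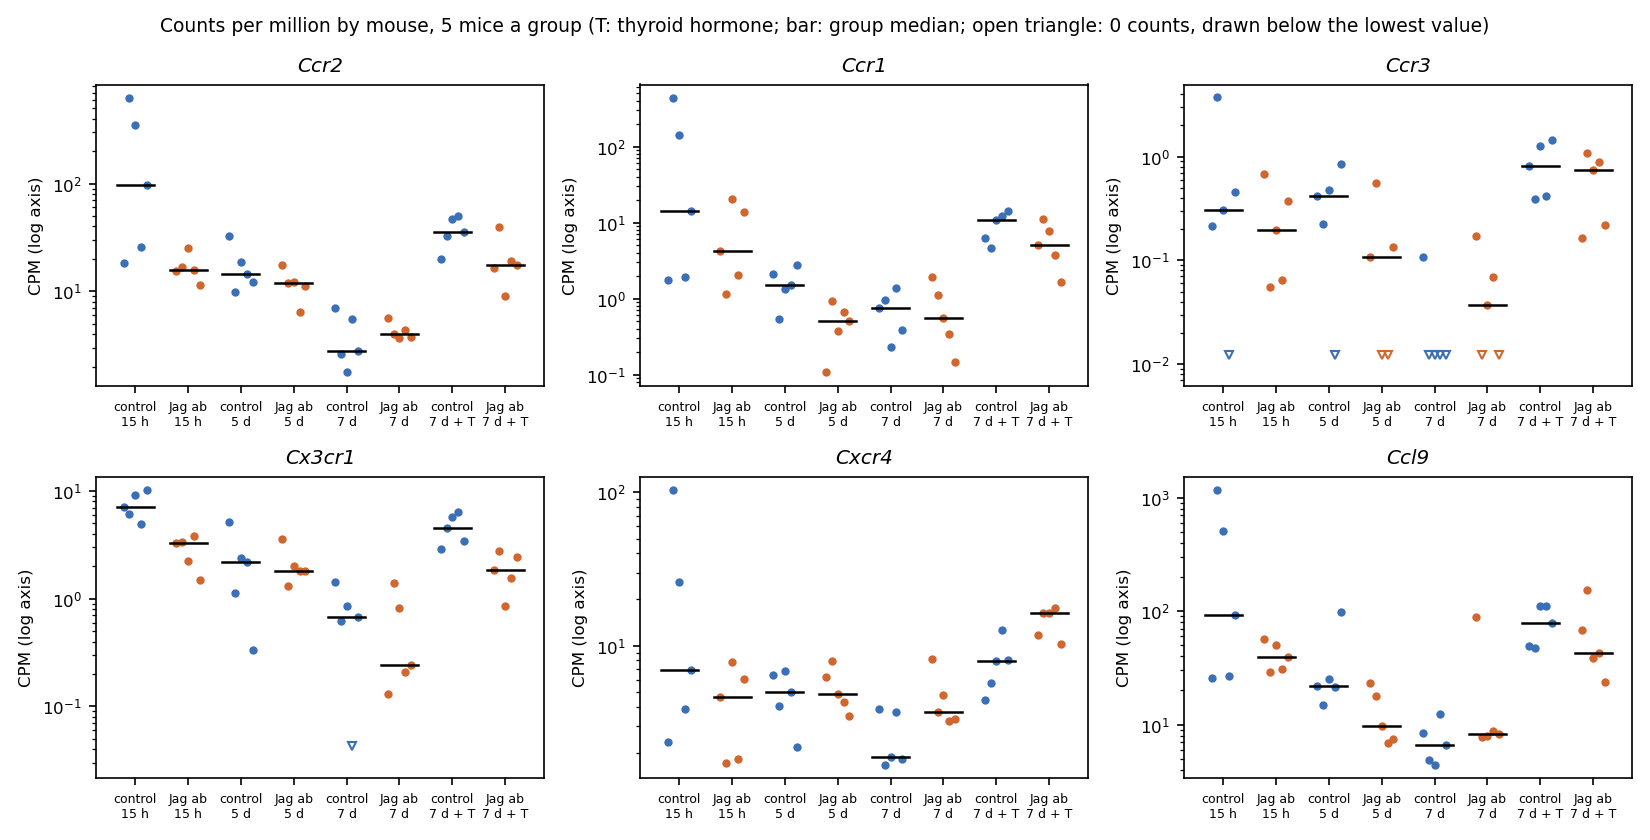
CPM (y axes, log scale) of Ccr2, Ccr1, Ccr3, Cx3cr1, Cxcr4 and Ccl9 in each mouse of the 8 groups, control mice in blue and Jag antibody mice in orange, with bars at group medians and open triangles for 0 counts. Control mice at 7 d lie below control mice given hormone in each panel, Ccr2 at 1.77 to 6.99 against 19.8 to 49.7 CPM.

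Of the CC ligands, 4 rose and 2 fell with hormone in control mice. Ccl6 and Ccl9, neighbouring macrophage ligands of Ccr1 on chromosome 11, were among them. Ccl9 (83572919 to 83578636) was at 8.38, 4.92, 4.44, 12.3 and 6.60 CPM without and 49.7, 47.5, 112, 111 and 79.0 with hormone (log2 fold change 3.46, SE 0.85, adjusted p = 0.00169). Ccl6 (83587882 to 83593087) was at 9.71, 5.97, 5.87, 25.7 and 12.3 CPM without and 58.2, 67.0, 143, 105 and 102 with hormone (3.01, SE 0.84, adjusted p = 0.00459). Neither overlapped. Ccl22, a dendritic cell ligand of Ccr4, rose by 2.46 (adjusted p = 0.00264) and Ccl12, a Ccr2 ligand, by 1.99 (adjusted p = 0.0356). Ccl12 lost its call without control mouse 2, 3, 4 or 5 or hormone-treated control mouse 4.

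Other ligands of the same receptors were not called by edgeR's test. Ccl2 was at 14.2, 2.81, 1.60, 11.5 and 1.48 CPM without and 26.4, 19.6, 23.2, 38.3 and 40.5 with hormone, with no overlap (log2 fold change 2.24, SE 0.94, adjusted p = 0.0521). DESeq2 and limma called it, as did edgeR with length and GC offsets, the muscle covariate, only the groups compared or without control mice 2 and 3 at 15 h. Ccl7 was at 1.85 (adjusted p = 0.110) and was called by limma and by edgeR under those settings other than the muscle covariate. Ccl3 was at 0.47 (0.716), Ccl4 at 0.21 (0.887) and Ccl5, called with length and GC offsets, at 0.84 (0.334). Of the CXC, CX3C and C ligands, Xcl1, the ligand of Xcr1, rose by 2.37 (adjusted p = 0.0223), Cxcl16, the ligand of Cxcr6, by 1.02 (adjusted p = 0.010) and Cxcl12 by 0.63 (adjusted p = 0.0228). Xcl1 lost its call without control mouse 2 or 3 or hormone-treated control mouse 4, and Cxcl12 without control mouse 1, 2 or 4 or hormone-treated control mouse 2. Cxcr6 was at 0.93 (adjusted p = 0.208). Cxcl9 differed by 0.02 (SE 0.34, adjusted p = 0.968) and Cx3cl1, the ligand of Cx3cr1, by 0.45 (SE 0.34, adjusted p = 0.297).

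The 4 members that fell were 2 ligands and 2 receptors. Ccl27a, a skin chemokine, was at 0.640, 1.67, 1.48, 2.28 and 1.15 CPM without and 0.403, 0.309, 0.205, 1.07 and 0.214 with hormone (log2 fold change -1.69, SE 0.49, adjusted p = 0.00546), with overlap from 1 treated mouse. Its exons overlap those of Il11ra1 on the other strand, which leaves its counts uncertain. Ccr10, the receptor for Ccl27a, fell by 0.98 (adjusted p = 0.028; -0.52 and 0.258 with length and GC offsets) and Ccl25 by 0.64 (adjusted p = 0.0383). Leaving out 1 mouse ended the call of Ccr10 in 6 of 10 fits (control mouse 3 or 5, or hormone-treated control mouse 1, 3, 4 or 5, at -0.81 to -0.97, adjusted p of 0.0503 to 0.0837) and of Ccl25 in 7 (control mouse 2, 4 or 5, or hormone-treated control mouse 1, 3, 4 or 5, at -0.57 to -0.65, adjusted p of 0.0567 to 0.092). Ackr3 went from 266, 420, 199, 172 and 156 to 93.6, 122, 85.4, 94.6 and 110 CPM, with no overlap (-1.26, SE 0.31, adjusted p = 0.00141). Ackr2, a scavenger of inflammatory CC ligands, rose by 2.13 (adjusted p = 0.00508).

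Many leukocyte markers moved with the receptors. The mean log2 CPM of 6 pan-leukocyte genes was 2.30 ± 0.46 in control mice at 7 d and 4.63 ± 0.56 with hormone (SD, n = 5, exact permutation test, two-sided p = 0.00794, adjusted 0.0476 over 12 tests). All 6 were called higher. So were 5 of 5 monocyte, 6 of 8 macrophage, 6 of 6 NK cell and 4 of 6 dendritic cell markers. Of the other leukocyte lists, 1 of 6 tested T cell, 0 of 5 tested neutrophil, 0 of 6 B cell and 0 of 5 mast cell markers were called. Among all genes 20.3% were called higher and 22.9% lower. The 5 monocyte markers summed to 11.2 to 23 CPM without and 66.8 to 158 with hormone, the 6 pan-leukocyte genes to 25.7 to 56.6 and 125 to 332, and neither list had a gene at 0. Lists of tissue cells moved as well. Brown adipocyte markers were lower for 5 of 8 (sums of 34200 to 80600 CPM without and 11000 to 18000 with hormone). Higher were 4 of 5 endothelial (282 to 604 and 657 to 940 CPM), 4 of 6 fibroblast and progenitor (528 to 733 and 1230 to 2660) and 2 of 4 lymphatic endothelial markers (8.17 to 14.1 and 20.4 to 58.4). Their part in the levels of stromal members such as Cxcl12 and Ackr3 was not tested. Control mice at 7 d had the lowest mean of the 8 groups. With the pan-leukocyte score as a covariate 6 members were called, 3 higher, among them Ccr2 at 1.05 and Cx3cr1 at 2.30, and 3 lower (Ccl27a, Ccl3 and Ccl4). Ccl6 was then at -0.01, Ccl9 at 0.30 and Ccr1 at 0.14.

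Genes that act below chemokine receptors were also called higher. In a list of 27 signalling genes, 18 were called higher and 0 lower with hormone in control mice, with a median log2 fold change of 1.28. Fgr, a myeloid Src kinase, rose by 4.81 (adjusted p = 0.000211), Pik3r5, a subunit of the G protein-coupled PI3 kinase, by 3.22 (adjusted p = 3e-04), Dock2, which activates Rac in leukocyte migration, by 3.16 (adjusted p = 0.000172) and Vav1 by 3.11 (adjusted p = 0.000456). In a list of 23 cytokines and transcription factors that induce chemokines, 19 were tested, and 7 were called, 6 higher and 1 lower. Of 10 chemokine-like genes 4 were called. Both counts are near the 43.2% of all genes called in this comparison. Of these 4, 3 were higher, among them Cmklr1, the chemerin receptor (1.81, adjusted p = 0.00103), and 1 was lower, Rarres2, which encodes chemerin (-1.29, adjusted p = 0.00913).

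With hormone, Jag antibody mice had 4 members called, 3 higher and 1 lower, against 9.50% of all genes, 4.29% higher and 5.21% lower. The 8.89% of members called was near that background. Ccr2 was at 5.64, 4.06, 3.72, 4.35 and 3.73 CPM without and 16.4, 39.9, 9.10, 19.3 and 17.6 with hormone (log2 fold change 2.25, SE 0.59, adjusted p = 0.0137). These groups did not overlap, and upward separation was seen for 4 members and 5.23% of all genes. The call was lost without hormone-treated mouse 7, at 1.84 (adjusted p = 0.0562), which left 1 member called. By limma, and by edgeR with the pan-leukocyte score as a covariate, neither Ccr2 nor Cx3cr1 was called. Without untreated mouse 6, which had the highest leukocyte score of its group, 10 members were called.

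Cx3cr1 was at 0.129, 1.39, 0.811, 0.207 and 0.242 CPM without and 1.85, 2.80, 0.846, 1.54 and 2.42 with hormone (1.75, SE 0.56, adjusted p = 0.0399). The groups overlapped, and the call was lost without any 1 of untreated mice 6, 9 and 10 or treated mice 6, 7, 9 and 10 (1.49 to 1.82, adjusted p of 0.0547 to 0.100). Ccl27a was at 1.42, 1.56, 1.03, 1.31 and 1.41 CPM without and 0.273, 0.518, 0.264, 0.403 and 0.386 with hormone. It fell by 1.84 on the log2 scale (SE 0.49, adjusted p = 0.0143), with no overlap, as for 6.82% of all genes. Cxcl5 was at 0 in all 5 untreated mice and had 59, 5, 102, 17 and 2 counts with hormone, at least 60.2-fold higher against a floor of 3 counts over the untreated group, and it was not called (adjusted p = 0.056). The pan-leukocyte score was 3.00 ± 0.69 without and 4.13 ± 0.63 with hormone (SD, n = 5, exact permutation test, two-sided p = 0.0317, adjusted 0.127).

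The hormone response was not shown to differ between the antibodies. The interaction called 0 members by edgeR, against 0.00586% of all genes, and 0 members by DESeq2. At an unadjusted p under 0.05 by edgeR there were 2 of 45 members and 2103 of 17079 genes. The difference of hormone responses was -0.98 for Ccr2 (SE 0.81, adjusted p = 0.580) and -2.03 for Ccl9 (SE 1.11, adjusted p = 0.438). A p that misses the threshold does not show that the responses were alike.

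Whether the antibody difference changed over 15 h, 5 d and 7 d was tested in 1 fit of all 3 times. It called 3 members, Ccr2 (adjusted p = 0.0275), Cxcr4 (0.0427) and Ccl9 (0.0463), against 1.86% of all genes. With control mice 2 and 3 at 15 h left out it called 0, and without 1 mouse at a time it called 0 (control mouse 3 at 15 h or 2 at 7 d, Jag antibody mouse 9 or 10 at 15 h or 6 at 7 d) to 7 (control mouse 4 at 15 h). For Ccl9 the log2 fold changes of antibody were -3.13 at 15 h, -1.48 at 5 d and 1.74 at 7 d.

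Since control mice at 7 d were low in many members, they were set against control mice at 5 d, a comparison added after the data were seen. Picking the group for its low values favours lower calls and downward separation at 7 d, so the p-values and counts here only describe these mice. Of 45 members, 8 were called, 2 higher and 6 lower at 7 d, against 9.13% of all genes, 4.71% higher and 4.42% lower. Ccr2 fell by 2.16 (adjusted p = 0.0215), with no overlap. Xcl1 fell by 3.14 (adjusted p = 0.0183), Cxcr3 by 2.01 (adjusted p = 0.0166), Ccl22 by 1.96 (adjusted p = 0.0494), Ackr1, the atypical receptor of venules, by 1.32 (adjusted p = 0.0193) and Cxcl16 by 1.10 (adjusted p = 0.0278). Marker lists differed between these groups too. Lower at 7 d were 5 of 6 fibroblast and progenitor, 4 of 6 NK cell, 4 of 8 macrophage and 3 of 5 mast cell markers, and muscle markers summed to a median of 23200 CPM at 5 d and 19.7 at 7 d with 0 of 8 called. With the muscle score as a covariate 1 of the 8 members, Ccr2, stayed called (-2.32, adjusted p = 0.0422). With the pan-leukocyte score 6 members were called, and Cxcl1 was the 1 shared with the 8. Downward separation was seen for 9 members and 2.45% of all genes, and upward separation for 0 members and 1.97%. Ackr3 rose by 1.02 (adjusted p = 0.0326). Cxcl1, a neutrophil attractant, was at 0.360, 0, 0.138, 0.0801 and 0 CPM at 5 d and 15.2, 1.23, 0.399, 0 and 0.765 at 7 d (4.70, SE 1.31, adjusted p = 0.0225), and without control mouse 1 at 7 d it was at 2.14 (adjusted p = 0.262). Of these 8, only Cxcr3 was called without each single mouse. Without control mouse 2 at 7 d, 2 were called, and Ccr2 was at -2.08 (adjusted p = 0.0645), Xcl1 at -2.94 (0.0595), Ackr3 at 0.70 (0.186), Ccl22 at -1.73 (0.130), Ackr1 at -1.20 (0.0656) and Cxcl16 at -1.05 (0.0838). Without control mouse 3 or 5 at 5 d, 3 and 4 were called, and without control mouse 2 at 5 d 13 were. Calls also ended without control mouse 1 at 5 d (Ccr2), 4 at 5 d (Cxcl1, Ackr3 and Ccl22), 1 at 7 d (Ackr3 and Ccl22), 3 or 4 at 7 d (Ccl22) or 5 at 7 d (Ccl22 and Cxcl16).

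In Jag antibody mice the same comparison called 3 members, 1 higher and 2 lower, against 3.29% of all genes, 2.01% higher and 1.28% lower. Groups did not overlap for 1 member, Ccr2, which was lower at 7 d (2.02% of all genes, and 2.11% upward) and not called (-1.46, adjusted p = 0.149). Cxcl13 was higher at 7 d (log2 fold change 3.24, adjusted p = 0.0361; 1.46, adjusted p = 0.376 without mouse 6). Cx3cr1 fell by 1.90 (adjusted p = 0.0477) and Cxcl16 by 1.22 (adjusted p = 0.0283). Without Jag antibody mouse 6 at 5 d none of the 3 was called, Cxcl13 being at 2.92, Cx3cr1 at -1.63 and Cxcl16 at -0.90. Every other single mouse but Jag antibody mouse 8 at 7 d also ended at least 1 of these calls. The changes in control and Jag antibody mice were not tested against each other.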

How the data were processed

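RNA-seq libraries (single-end reads of 50 bp) of 40 mice were compared. The deposited values were whole-number counts per gene, and the submitters' processing notes name GSNAP and limma. The role of each tool, the genome build, the counting rule and its use of strand are not given in the sources used here. The authors also deposited FPKM values; in 87% of 14275 genes their length term was the genomic span within 2%, and they were used only in a limma alternative on log2(FPKM + 1).

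Symbols, positions and exonic lengths came from GENCODE M21 (GRCm38). TPM was computed from counts and exonic length. Tests used edgeR 4.0.16 (R 4.3.3): TMM scaling, the default filter on low counts over 8 groups, 1 robust quasi-likelihood fit over 40 libraries, Benjamini-Hochberg adjustment over 17079 genes and a threshold of 0.05. Log2 CPM used a prior count of 2. The scripts were tested on simulated data. Totals were 12217623 to 36511893 counts (median 18949808), and levels near 0 rest on few counts. Within-group correlations were 0.846 to 0.986, and no 2 libraries of the same group agreed within counting noise. Marker scores were compared by exact permutation over 252 arrangements.

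Named were up to 8 called members a direction with the largest folds, members called in an interaction, the 8 with the highest TPM, known ligand and receptor pairs and members not tested. Members and lists were chosen with earlier results of these data known. Alternatives were DESeq2 1.42.0, RLE scaling, no filter, only the groups compared, muscle or leukocyte covariates, length and GC offsets, a replicate block and leaving out each mouse. Leaving out control mice 2 and 3 at 15 h together and comparing 7 d with 5 d were added after seeing the data. Results of 1 member are not reported here.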

Additional observations from a re-analysis of the deposited data

Results flagged for a closer look

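In 5 of 72 sets of 5 mice, 1 mouse lay far from the other 4 of its group, where chance gives about 1 in 20, or 3.6. Jag antibody mouse 6 at 7 d accounted for 2. Its pan-leukocyte score was 4.2 on the log2 CPM scale, with the nearest mouse at 2.92. Cxcl13, the B cell attractant, was at 6.05 log2 CPM in it, with the nearest at 2.71.

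The other 3 were in control mice at 7 d and each turned on 0 counts, which the log2 CPM scale places at -3.37. Ccr3, the eosinophil receptor, was at -2.3 in mouse 1 and at 0 counts in the other 4. Cx3cr1 was at -3.37 in mouse 4, with the nearest mouse at -0.492. Ccl22, the dendritic cell ligand, was at -3.37 in mouse 2, with the nearest at -1.39.

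The antibody difference itself differed between 15 h, 5 d and 7 d by edgeR's joint test for Ccr2 (adjusted p = 0.0275), Cxcr4 (adjusted p = 0.0427) and Ccl9 (adjusted p = 0.0463). The log2 fold changes at these times were -3.71, -0.57 and 0.13 for Ccr2. With control mice 2 and 3 at 15 h left out, 0 members differed.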

How the results depend on the processing

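Member calls at 15 h (4 as reported) came to 2 without the low-count filter, 0 with only the groups compared, 0 with the leukocyte covariate, 7 with length and GC offsets, 2 with limma, 8 with DESeq2 and 0 without control mice 2 and 3 at 15 h. At 5 d (1) they came to 0 with the muscle covariate, 2 with the leukocyte covariate, 3 with DESeq2 and 2 without those control mice. At 7 d (2) they came to 0 without the filter, with only the groups compared or with the muscle covariate, and to 1 with the leukocyte covariate, offsets or limma. The 1 with the leukocyte covariate was Cxcl16, and neither Cxcl13 nor Ackr3 was called there. Offsets kept Cxcl13 and limma kept Ackr3. At 7 d with hormone (0) they came to 3 with only the groups compared and 1 with the leukocyte covariate. Hormone in control mice (20) came to 15 without the filter, 24 with only the groups compared, 21 with the muscle covariate and 6 with the leukocyte covariate. It came to 24 with offsets, 17 with limma, 22 with DESeq2 and 22 without those control mice. Limma did not call Ccr1, Ccl22 or Xcl1, and Ccr3 and Xcl1 were not called with only the groups compared. Hormone in Jag antibody mice (4) came to 8 with only the groups compared, 2 with the leukocyte covariate, 8 with offsets, 1 with limma, 9 with DESeq2 and 9 without those control mice. Antibody by time (3) came to 6 with offsets, 10 with DESeq2 and 0 without the filter, with only the groups compared, with either covariate, with limma or without those control mice. For 7 d against 5 d, control mice (8) came to 5 without the filter, 1 with only the groups compared, 1 with the muscle covariate, 5 with limma, 17 with DESeq2 and 14 without those control mice, and Jag antibody mice (3) to 1, 1, 1 and 5 without the filter, with only the groups compared and with the muscle and leukocyte covariates, 0 with limma and 5 with DESeq2. With only the groups compared, the 1 call for 7 d against 5 d in Jag antibody mice was Ccr2, which was not among the 3. The cause of these differences between settings was not tested.

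Signs turned for Ccr1 at 15 h (0.25 with the leukocyte covariate, 0.52 without control mice 2 and 3), Cxcr4 at 15 h (0.0246 without them) and, with hormone in control mice and the leukocyte covariate, Ccl6 (-0.0059) and Ccr10 (0.13).

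Leaving out each mouse gave 1 to 10 member calls at 15 h, 1 to 3 at 5 d, 0 to 2 at 7 d, 0 to 0 at 7 d with hormone and for antibody by hormone, 14 to 22 and 1 to 10 for hormone in control and Jag antibody mice, 0 to 7 for antibody by time, and 2 to 13 and 0 to 4 for 7 d against 5 d in control and Jag antibody mice.

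Groups share replicate numbers, whose meaning the labels do not give. Over 8 pairs of groups the mean correlation of same-numbered mice was 0.082 to 0.195, the lowest in a pair of groups was -0.364 to 0.042, and 1 to 4 of 5 mice correlated best with their own number (4 for Jag antibody mice at 5 d and 15 h, 3 at 7 d and 15 h), so the numbers were not taken as pairs. With a replicate block, hormone gave 20 calls in control and 5 in Jag antibody mice, their interaction 0, antibody by time 0, and 7 d against 5 d 6 and 2; with length and GC offsets as well these were 26, 6, 0, 0, 10 and 3.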

Other observations

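Jag antibody mouse 6 at 15 h had higher levels of lymphocyte transcripts than the rest of its group. The 6 B cell markers summed to 82.9 CPM in it and to 3.53 to 6.63 in the other 4 mice, and the 7 T cell markers to 57.5 against 1.77 to 4.55. Ccr7, the receptor that takes lymphocytes and dendritic cells into lymph nodes, was at 5.33 CPM in that mouse, and Cxcr5, the B cell receptor for Cxcl13, at 5.15 CPM against 0 to 0.478 in the other 4. Cxcl13 was at 27.8 CPM in that mouse and at 10.7 to 33.8 in the other 4, and the part of lymphocytes in it was not tested. The ligands of Ccr7, Ccl19 and Ccl21a, were at 0 in that library, as in all 40. Their near-identical copies in the genome leave these counts uncertain.

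Of 10 chemokine-like genes outside the symbol pattern, 2 were called at 15 h by edgeR's test, against 1.14% of all genes. These were the platelet chemokines Pf4 and Ppbp, lower in Jag antibody mice at log2 fold changes of -2.71 and -6.19. Without control mice 2 and 3 they were at -0.59 and 0.76 and were not called. At 5 d 1 of the 10 was called (8.02% of all genes), the chemerin receptor Cmklr1, which fell by 1.29. At 7 d 1 was called (2.50% of all genes), Gpr1, another chemerin receptor, which rose by 2.19. With hormone in Jag antibody mice 1 was called (9.50% of all genes), Rarres2, which encodes chemerin and fell by 1.40. The shares at 5 d and with hormone are near those of all genes.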
